A study of Mus musculus with 27 samples.

Results

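The contractile and mesenchymal cytoskeleton was followed through Acta2, Tagln, Cnn1, Myl9, Tpm1, Tpm2, Actn1, Cald1, Tns1 and Vim, 10 of the 24454 genes listed. They were chosen by name, as genes that are commonly read as markers of smooth muscle, myofibroblast and mesenchymal cells. Earlier results of these data were known at that choice. Their rows were found by Entrez identifier. In the GRCm38 genome Tns1 lies on chromosome 1 (73910231 to 74124449), Vim on chromosome 2 (13573927 to 13582826), Acta2 on chromosome 19 (34241090 to 34255590), Tpm2 on chromosome 4 (43514711 to 43523765), and Tagln, Cnn1 and Tpm1 on chromosome 9. All 10 are protein-coding, and the read totals cover the exons of each gene. The study asked how the coactivators Bcl9 and Bcl9L (B9/B9L) and canonical Wnt signalling take part in the epithelial-mesenchymal transition (EMT) that TGFβ induces in mammary tumour cells. RNA was sequenced from 9 cell lines, each left without cytokine for 4 days, given Wnt3a at 100 ng/ml for 3 days or given TGFβ at 2 ng/ml for 4 days, in 27 libraries.

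The lines came from mammary tumours of 12-week-old female MMTV-PyMT mice on the FVB/N background, which express the polyoma middle T oncogene from a promoter active in mammary epithelium. All 4 genotypes carried this transgene and a domain mutant of B9/B9L, so no line here had wild-type alleles alone. ΔHD1 lacks the domain that binds Pygopus and ΔHD2 lacks the domain that binds β-catenin. The second allele was wild type and floxed in the ΔHD1/fl and ΔHD2/fl lines. From the ΔHD1/- and ΔHD2/- lines it had been deleted in culture with an adenovirus carrying Cre and GFP, followed by sorting of GFP-positive cells. Each genotype had 2 lines, which the labels assign to different mice, except ΔHD2/-, which had 3 lines whose mice are not told apart in the labels. Fibroblasts had been removed from the cultures by differential trypsinization.

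Actomyosin contraction is carried by actin filaments, non-muscle or smooth muscle myosin II and the proteins that decorate and anchor the filaments. Smooth muscle α-actin (Acta2), transgelin (Tagln), calponin (Cnn1), the regulatory light chain Myl9, tropomyosins (Tpm1, Tpm2) and caldesmon (Cald1) make up or regulate the contractile filament. α-actinin (Actn1) crosslinks filaments, tensin (Tns1) links them to integrins at focal and fibrillar adhesions, and vimentin (Vim) forms the intermediate filaments of mesenchymal cells. Many of these genes are textbook targets of serum response factor (SRF), which binds the CArG box, and of TEAD factors, which bind the MCAT motif. TGFβ is known to induce several of them through Smad factors when epithelial or fibroblast-like cells become contractile. In the mammary gland the same contractile proteins are normal products of myoepithelial cells.

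The promoters of 4 of these genes are shown as windows that hold 1 or more of the motifs searched. They belong to Tns1, which changed most in the mean TGFβ response, Acta2, Tpm1 and Myl9. Among the windows found, only that of Myl9 held the exact letters of the CArG box that were searched. Each window runs from 250 bases before the annotated RefSeq start to 50 after it (GRCm38.p6), written 5′ to 3′. Capitals mark MCAT in Acta2 and Tpm1, the CArG box in Myl9 and the short Smad-binding letters CAGAC in Tns1.
Acta2, chr19:34255324-34255623, minus strand: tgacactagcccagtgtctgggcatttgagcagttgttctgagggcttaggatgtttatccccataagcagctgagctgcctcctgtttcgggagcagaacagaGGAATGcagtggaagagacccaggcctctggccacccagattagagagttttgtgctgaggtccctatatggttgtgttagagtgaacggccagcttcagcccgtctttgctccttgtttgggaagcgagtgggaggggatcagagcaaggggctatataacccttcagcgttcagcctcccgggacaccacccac
Tpm1, chr9:67049164-67049463, minus strand: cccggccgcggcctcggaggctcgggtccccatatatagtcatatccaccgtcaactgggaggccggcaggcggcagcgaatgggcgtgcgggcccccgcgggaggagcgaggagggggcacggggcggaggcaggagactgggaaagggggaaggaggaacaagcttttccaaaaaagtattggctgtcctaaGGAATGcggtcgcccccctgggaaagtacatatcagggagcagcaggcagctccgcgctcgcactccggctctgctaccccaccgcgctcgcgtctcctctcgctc
Myl9, chr2:156775214-156775513, plus strand: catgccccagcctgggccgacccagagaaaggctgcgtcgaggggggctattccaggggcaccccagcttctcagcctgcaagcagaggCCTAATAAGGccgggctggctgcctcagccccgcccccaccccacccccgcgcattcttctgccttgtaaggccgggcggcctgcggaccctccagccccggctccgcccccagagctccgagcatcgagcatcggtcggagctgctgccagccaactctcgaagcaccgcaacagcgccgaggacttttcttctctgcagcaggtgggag
Tns1, chr1:74124499-74124798, minus strand: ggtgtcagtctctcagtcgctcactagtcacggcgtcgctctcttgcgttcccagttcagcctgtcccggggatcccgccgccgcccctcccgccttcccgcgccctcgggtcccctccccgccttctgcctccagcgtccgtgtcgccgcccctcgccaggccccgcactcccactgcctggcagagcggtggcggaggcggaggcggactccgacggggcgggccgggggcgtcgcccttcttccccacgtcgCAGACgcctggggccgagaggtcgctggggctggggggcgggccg

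Promoter entries were found for 9 of the 10 genes (10 windows, of which 2 belonged to Cald1), and Tagln had none. The exact letters of 3 motifs were searched on both strands. The CArG box occurred in 1.63% of 32851 mouse promoter windows and, among the members, in Myl9 at position -161 with the start site at 0. MCAT (CATTCC or GGAATG) occurred in 14.66% of the windows and was found in Acta2 at -146, Tpm1 at -56 and 1 Cald1 window at -153. CAGAC or GTCTG occurred in 49.59% of the windows and was found in Acta2, Cald1, Cnn1 and Tns1. The printed matches of the 3 motifs do not overlap each other. A match of letters is a description of the window, and degenerate forms of the motifs and sites outside the window were not searched.

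The libraries contained between 21.86 and 33.69 M reads each, M being 1000000, with a median of 25.96 M. A count of 0 allows for up to 3 reads, which equalled 0.089 to 0.137 CPM (reads per 1000000 assigned reads). Without cytokine the targeted genes measured 34.0 to 67.8 CPM (Bcl9) and 138 to 323 CPM (Bcl9l). These totals do not show which domain a transcript encodes and so do not check the genotype labels. Lines 2 of ΔHD1/fl and ΔHD1/- stood apart from an epithelial profile. Untreated, Cdh1 (E-cadherin) was 0.522 and 0.237 CPM in them, against 607 to 1145 CPM in the other 7 lines. The summed level of 10 fibroblast markers was 1886 and 5993 CPM in them, against 1.05 to 43.2 CPM elsewhere, although the fibroblast markers Lum, Fap, Dpt and Pdpn did not reach 1 CPM in 2 libraries anywhere and Thy1 had 0 reads in both lines without cytokine. ΔHD1/- line 2 kept Krt8 at 1089 CPM, whereas ΔHD1/fl line 2 had 0.336 CPM. Lines 2 and 3 of ΔHD2/- were nearly alike (correlation across genes 0.993 to 0.997, 15 other replicate pairs: 0.807 to 0.957) and differed by more than counting noise, which repeat cultures of 1 line could also do. Both were counted, following the labels. In such bulk libraries, fewer cells of a type and less RNA per cell cannot be told apart.

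**Figure D1:**
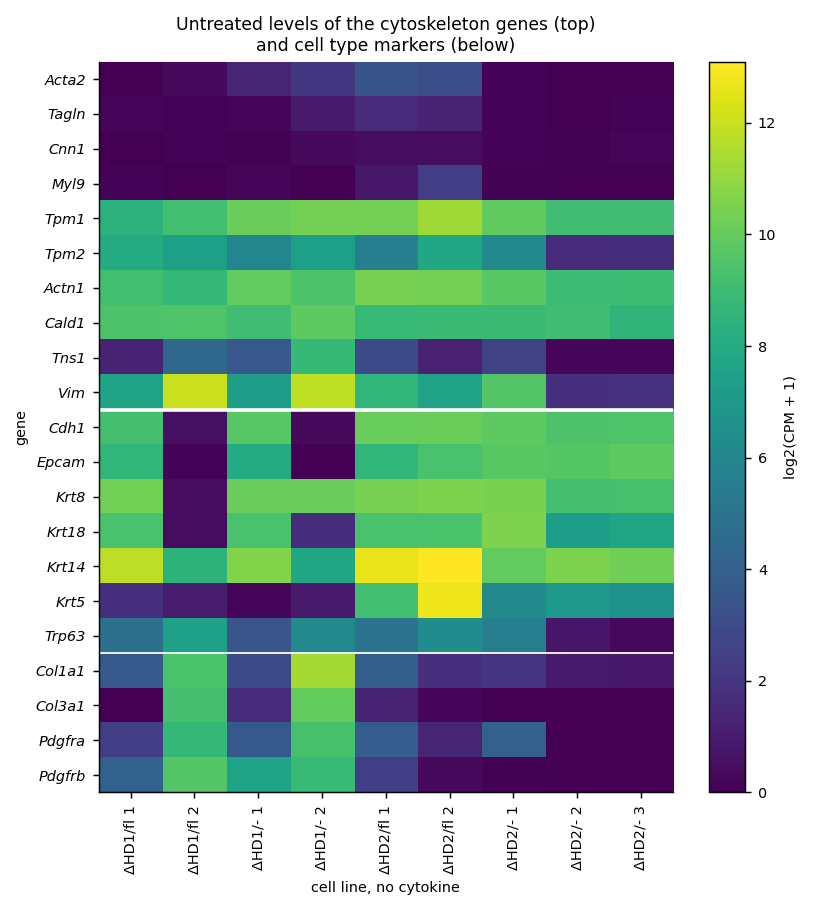
Untreated levels as log2(CPM + 1) (colour) of the 10 cytoskeleton genes (top block) and of epithelial, basal and fibroblast or pericyte markers (lower blocks) in the 9 cell lines. Tpm1, Actn1 and Cald1 were high in all lines, Acta2, Tagln, Cnn1 and Myl9 were near the floor in most, and Vim was highest in the same 2 lines in which Cdh1 and Epcam were near the floor.

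The first question was how much of each gene the lines held before treatment. The 10 genes fell on very different levels. Per kilobase of exon, untreated Tpm1 had a median of 146 CPM/kb over the 9 lines, Actn1 125 CPM/kb, Cald1 44.7 CPM/kb, Vim 41.8 CPM/kb and Tpm2 25.7 CPM/kb. Tns1 had a median of 0.316 CPM/kb, and Acta2, Tagln, Myl9 and Cnn1 had medians of 0.119, 0.0645, 0.0376 and 0.0319 CPM/kb. By these medians the RNA of the broadly expressed filament genes was abundant and that of the smooth muscle genes low, with exceptions in single lines that are given below for each gene.

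Each of the 4 low genes had abundant non-muscle paralogues on the same scale. Actb, the cytoplasmic β-actin, had an untreated median of 1123 CPM/kb against 0.119 CPM/kb for Acta2. Tagln2 reached 362 CPM/kb against 0.0645 for Tagln, and the non-muscle light chain Myl12a 115 CPM/kb against 0.0376 for Myl9. Cnn2 and Cnn3 had medians of 88.5 and 105 CPM/kb against 0.0319 for Cnn1. The muscle actins were low like Acta2, with medians of 0.140 CPM/kb (Actg2), 0.445 CPM/kb (Acta1) and 0 CPM/kb (Actc1). Reads were kept only where they aligned to 1 place, which removes reads shared by near-identical actins, so the levels of Acta2 and its paralogues are uncertain to that extent. Tagln, Cald1 and Actn1 overlap other annotated genes (Pcsk7 for Tagln), and gene totals do not separate isoforms.

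Vim varied most between lines. Untreated Vim was 198 and 4188 CPM in ΔHD1/fl lines 1 and 2, 157 and 3678 CPM in ΔHD1/- lines 1 and 2, 395 and 187 CPM in ΔHD2/fl lines 1 and 2, and 761, 2.48 and 2.60 CPM in ΔHD2/- lines 1, 2 and 3. The highest line exceeded the lowest 1691-fold, and the SD of log2(CPM + 1) over the lines was 3.70, above that of 99.8% of the 13270 tested genes (median SD 0.418). The high values belonged to the 2 lines with Cdh1 near the floor and the low values to the nearly alike ΔHD2/- lines 2 and 3, and the fl and recombined lines overlapped in both pairs. How far fibroblast marker expression in lines 2 of ΔHD1/fl and ΔHD1/- accounts for their Vim was not tested.

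Tpm2 and Tns1 also spread widely. Tpm2, the β-tropomyosin, was 265 and 175 CPM in ΔHD1/fl, 63.2 and 165 CPM in ΔHD1/-, 47.3 and 219 CPM in ΔHD2/fl, and 74.9, 2.07 and 2.26 CPM in ΔHD2/- lines, a 128-fold range with the same 2 ΔHD2/- lines lowest. Tns1 was 1.46 and 20.1 CPM in ΔHD1/fl, 10.8 and 432 CPM in ΔHD1/-, 6.29 and 1.30 CPM in ΔHD2/fl, and 5.07, 0.135 and 0.126 CPM in ΔHD2/-. Before treatment Tns1 exceeded 20.1 CPM in ΔHD1/- line 2 alone, and ΔHD2/- lines 2 and 3 had 3 reads each.

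The smooth muscle genes were low. Acta2 was highest in ΔHD2/fl lines (9.65 and 7.66 CPM), followed by ΔHD1/- (1.58 and 3.30 CPM) and ΔHD1/fl (0 and 0.261 CPM). The ΔHD2/- lines gave 0.0873, 0 and 0 CPM, at most 2 reads. Tagln was also highest in ΔHD2/fl, at a lower level, with 1.94 and 1.44 CPM in ΔHD2/fl, 0.128 and 0.950 CPM in ΔHD1/-, 0.183 and 0.0746 CPM in ΔHD1/fl and at most 0.0873 CPM in ΔHD2/-, and apart from ΔHD2/fl and ΔHD1/- line 2 these were 4 reads or fewer, without an order between the genotypes. Myl9 was 0.776 and 4.18 CPM in ΔHD2/fl and at most 0.171 CPM in the other lines, and Cnn1 did not exceed 0.370 CPM. The summed level of 8 basal or myoepithelial markers was also highest in the ΔHD2/fl lines (7472 and 17090 CPM against 350 to 3527 CPM elsewhere), mostly from the keratins Krt14 and Krt5. Of the 8 markers, Krt5, Krt14 and Oxtr were highest in both ΔHD2/fl lines, whereas Trp63 was highest in ΔHD1/fl line 2 (180 CPM against 31.0 and 82.8 CPM in ΔHD2/fl) and Mylk in lines 2 of ΔHD1/- and ΔHD1/fl (45.6 and 41.9 CPM against 3.23 and 20.1 CPM). The part of basal marker expression in these levels was not tested.

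Tpm1, Actn1 and Cald1 ranged less. Tpm1, the α-tropomyosin, was 341 and 561 CPM in ΔHD1/fl, 1102 and 1323 CPM in ΔHD1/-, 1306 and 2379 CPM in ΔHD2/fl and 946, 548 and 543 CPM in ΔHD2/-. Actn1 was 566 and 426 CPM in ΔHD1/fl, 984 and 692 CPM in ΔHD1/-, 1339 and 1301 CPM in ΔHD2/fl and 844, 510 and 521 CPM in ΔHD2/-. Within each pair of genotypes the fl and recombined lines did not overlap in either gene, with the recombined lines higher in ΔHD1 and lower in ΔHD2. Of all tested genes, 26.9% in ΔHD1 and 27.3% in ΔHD2 had no overlap. Cald1 lay between 385 and 918 CPM in all 9 lines. The fl and recombined lines overlapped within both pairs.

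**Figure D2:**
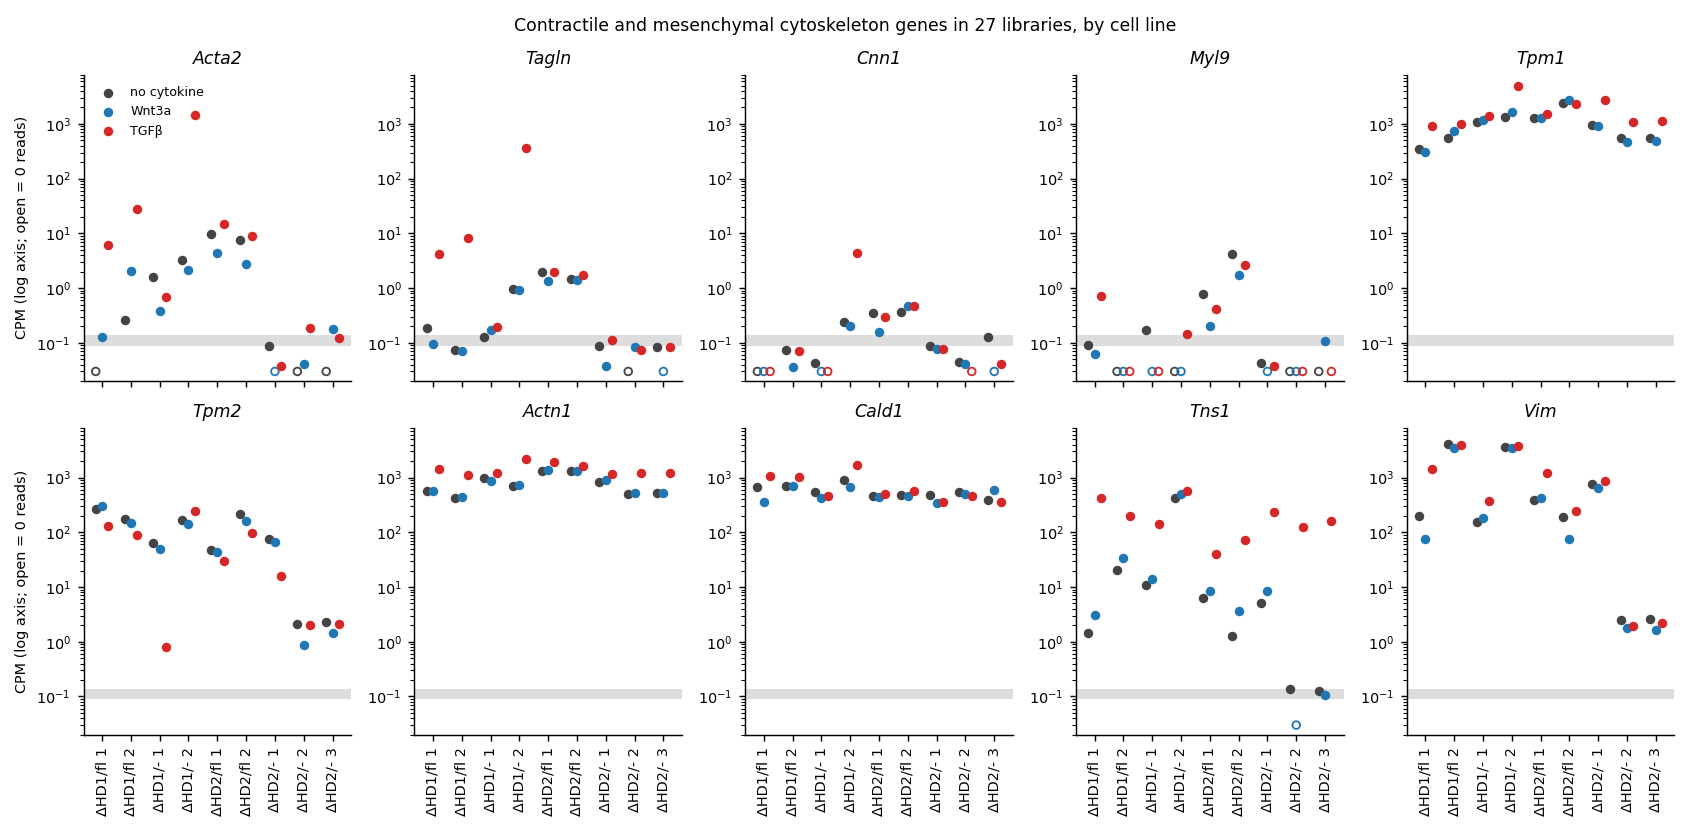
CPM (log axis) of each cytoskeleton gene in the 9 cell lines without cytokine (dark), with Wnt3a (blue) and with TGFβ (red), where open circles are libraries with 0 reads and the grey band is the CPM of 3 reads over all libraries. The TGFβ point of Tns1 lies above the untreated point in all 9 lines, whereas those of Acta2, Tagln and Cnn1 stand far above it in ΔHD1/- line 2.

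The differences between fl and recombined lines did not pass the test across all genes (limma on log2(CPM + 1), with a call needing a Benjamini-Hochberg p no higher than 0.05 together with a log2 change of 1 or more in either direction). Of the 9 members that passed the expression filter (all but Cnn1), 0 were called between ΔHD1/- and ΔHD1/fl and 0 between ΔHD2/- and ΔHD2/fl without cytokine, where 0.0678% and 0.55% of the 13270 tested genes were called. At an unadjusted p under 0.05 there were 2 and 3 members, among 644 and 1143 of all tested genes. Of the 3, 1 was Myl9, from which nothing is read for the reason given below. edgeR on the recovered reads called 0 members, with 0 and 4 genes called in all. In ΔHD2/- against ΔHD2/fl, the log2 difference was -1.12 ± 0.29 for Actn1 (SE, adjusted p = 0.126) and -1.43 ± 0.55 for Tpm1 (adjusted p = 0.463). Myl9 reached 1 CPM in ΔHD2/fl line 2 alone and entered the test through that line, so its difference of -1.58 between these genotypes follows from the filter and is given without a test. In ΔHD1/- against ΔHD1/fl, Tpm1 differed by 1.46 ± 0.60 (adjusted p = 0.921) and Actn1 by 0.75 ± 0.31 (adjusted p = 0.928). Under TGFβ 0 members were called in either pair (0.0301% and 0.354% of genes called), with 1 and 2 members at an unadjusted p under 0.05, 1 of the 2 being Myl9, among 1091 and 1059 of all tested genes. edgeR called 0 members there and 0 genes in all. Leaving out either ΔHD1/- line, or the 2 lines with Cdh1 near the floor, gave calls of Acta2 and Tagln in both states. They were lower in ΔHD2/- than in ΔHD2/fl, with the same log2 differences as with all lines (-3.22 and -1.34 without cytokine, -3.50 and -1.40 under TGFβ). Without the 2 lines with Cdh1 near the floor, Tagln passed the filter through the ΔHD2/fl lines, where it was high, so nothing is read from its calls there. Leaving out ΔHD2/- line 1 gave a call of Actn1 without cytokine (-1.36). Myl9 passed the limits in both states without ΔHD2/fl line 1 (-2.35 and -1.87), which left the 1 line that had admitted it, and nothing is read from this. For ΔHD1/- against ΔHD1/fl under TGFβ, Acta2 and Tagln were called higher without ΔHD1/- line 1 (6.66 and 5.76). Both were called lower when lines 2 of both genotypes were left out (-2.08 and -2.10), and Tagln also without ΔHD1/- line 2 alone (-2.52). The sign of these 2 genes between the ΔHD1 genotypes thus turned on which ΔHD1/- line was kept. A genotype left with 1 line was assumed to vary like the others.

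The second question was how the genes answered TGFβ within each line. Of the members Tns1 had the largest mean change over the genotypes. Its level went from 1.46 to 429 CPM and from 20.1 to 202 CPM in ΔHD1/fl lines 1 and 2, and in ΔHD1/- lines 1 and 2 from 10.8 to 140 CPM and from 432 to 576 CPM. In the ΔHD2/fl lines it went from 6.29 to 40.4 CPM and from 1.30 to 73.2 CPM, and in the 3 ΔHD2/- lines from 5.07 to 238 CPM, 0.135 to 123 CPM and 0.126 to 161 CPM. It was higher in 9 of 9 lines, and the rise was smallest (1.33-fold) in ΔHD1/- line 2, where it was already high. In ΔHD2/- lines 2 and 3 the reads went from 3 to 3313 and from 3 to 3865. The mean log2 fold change over the 4 genotypes was 4.38 ± 0.83 (SE), rank 6 from the highest rise among 13270 tested genes, with an adjusted p of 0.00202 (limma).

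Tns1 was the 1 of 9 tested members called in the mean TGFβ response, where 5.42% of genes were called (1.86% called higher). Leaving out the 2 lines with Cdh1 near the floor gave 5.30 (adjusted p = 0.000483, limma), and leaving out ΔHD2/- lines 2 and 3 gave 4.10 (adjusted p = 0.0356). By genotype, Tns1 was called in ΔHD2/- at 6.41 ± 1.42 (adjusted p = 0.0389), where 0.806% of genes were called. That call was lost without either of ΔHD2/- lines 2 and 3 (adjusted p = 0.473 and 0.562), without line 1 (0.0504), without either ΔHD2/fl line (0.0881 and 0.0879) and with edgeR (0.200). The changes in ΔHD1/fl, ΔHD1/- and ΔHD2/fl were 5.36 ± 1.74, 1.99 ± 1.74 and 3.76 ± 1.74 and were not called.

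Because untreated and treated libraries of 1 line deviated together, a second fit took the cell line as a blocking factor. In this fit Tns1 was called in ΔHD1/fl (adjusted p = 0.00811), ΔHD2/fl (0.0362) and ΔHD2/- (0.000475), and its adjusted p was 0.191 in ΔHD1/-. edgeR on the recovered reads called 3 members in the mean response (Acta2, Tagln and Tns1, where it called 7.44% of genes). With the block, 3 members were called in the mean response (8.92% of genes called), 3 for ΔHD1/fl alone (5.42%), 2 for ΔHD1/- (9.33%), 1 for ΔHD2/fl (5.24%) and 2 for ΔHD2/- (6.03%). Without it, 0 were called in ΔHD1/fl, ΔHD1/- and ΔHD2/fl (0.211%, 1.43% and 0.286% of genes called), 2, 3 and 1 had an unadjusted p under 0.05, among 1260, 1777 and 1156 of all tested genes, and edgeR called 0 members, with 8, 119 and 1 genes called in all.

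Actn1 was higher under TGFβ in 9 of 9 lines, by a smaller and more even amount. It went to 1463 and 1116 CPM in ΔHD1/fl, 1231 and 2190 CPM in ΔHD1/-, 1942 and 1617 CPM in ΔHD2/fl and 1161, 1227 and 1220 CPM in ΔHD2/-, that is, from 1.24-fold in ΔHD2/fl line 2 to 3.16-fold in ΔHD1/- line 2. Under TGFβ the lines differed less than before, with a range of 1.96-fold against 3.14-fold without cytokine. The mean log2 fold change was 0.94 ± 0.15 (SE, adjusted p = 0.000494, limma), which passed the p limit and fell short of the fold limit.

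Tpm1 was higher under TGFβ in 8 of 9 lines. It reached 915 and 989 CPM in ΔHD1/fl, 1397 and 4846 CPM in ΔHD1/-, 1527 and 2300 CPM in ΔHD2/fl and 2695, 1090 and 1140 CPM in ΔHD2/-, and the exception was ΔHD2/fl line 2 (2379 to 2300 CPM). The mean change was 0.88 ± 0.29 (adjusted p = 0.0462, limma), also short of the fold limit, and with the cell line block its adjusted p was 0.000577. With the block Tpm1 was called in ΔHD1/fl (1.12), ΔHD1/- (1.11) and ΔHD2/- (1.19), and Actn1 in ΔHD1/fl (1.38). On adjusted p alone, Tns1, Actn1 and Tpm1 passed in the mean response, as did 16.8% of all tested genes. Leaving out ΔHD1/- line 1 put Tpm1 and Actn1 past the fold limit (1.07 and 1.11), leaving out ΔHD1/- line 2 gave Tpm1 an adjusted p of 0.153, and leaving out ΔHD2/- line 1 put Actn1 at 1.01. On the CPM scale the median log2 change of all tested genes was -0.16 in this comparison. Under median-of-ratios scaling, where it was -0.02, 318 genes were called higher and 316 lower, against 247 and 472 on CPM, and Tpm1 and Actn1 were called at 1.05 and 1.12.

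Tpm2 was lower where Tpm1 was higher in 7 of 9 lines. Under TGFβ it went from 265 to 130 CPM and from 175 to 90.6 CPM in ΔHD1/fl, and from 63.2 to 0.794 CPM in ΔHD1/- line 1, and in the ΔHD2/fl lines from 47.3 to 29.6 CPM and from 219 to 96.8 CPM. In ΔHD2/- line 1 it went from 74.9 to 15.9 CPM. In ΔHD2/- lines 2 and 3 it was at 2.00 and 2.13 CPM after 2.07 and 2.26 CPM, and in ΔHD1/- line 2 it was higher, at 240 CPM after 165 CPM. It was thus lower in 8 of 9 lines, most in ΔHD1/- line 1, whose reads went from 1477 to 20. The mean log2 change was -1.24 ± 0.95 (adjusted p = 0.398, limma) and did not pass the test, also with the cell line block (adjusted p = 0.0543). Without ΔHD1/- line 1 it was -0.53 (adjusted p = 0.756). The change of Tpm1 was above that of Tpm2 in 9 of 9 lines, which is given as a description without a test. The ratio of their CPM moved most in ΔHD1/- line 1 (17.5 to 1759), ΔHD2/- line 1 (12.6 to 170) and ΔHD1/fl line 1 (1.29 to 7.02). It moved less in ΔHD1/fl line 2 (3.21 to 10.9), ΔHD1/- line 2 (8.00 to 20.2), ΔHD2/fl lines 1 and 2 (27.6 to 51.7 and 10.9 to 23.8) and ΔHD2/- lines 2 and 3 (264 to 546 and 240 to 536).

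**Figure D3:**
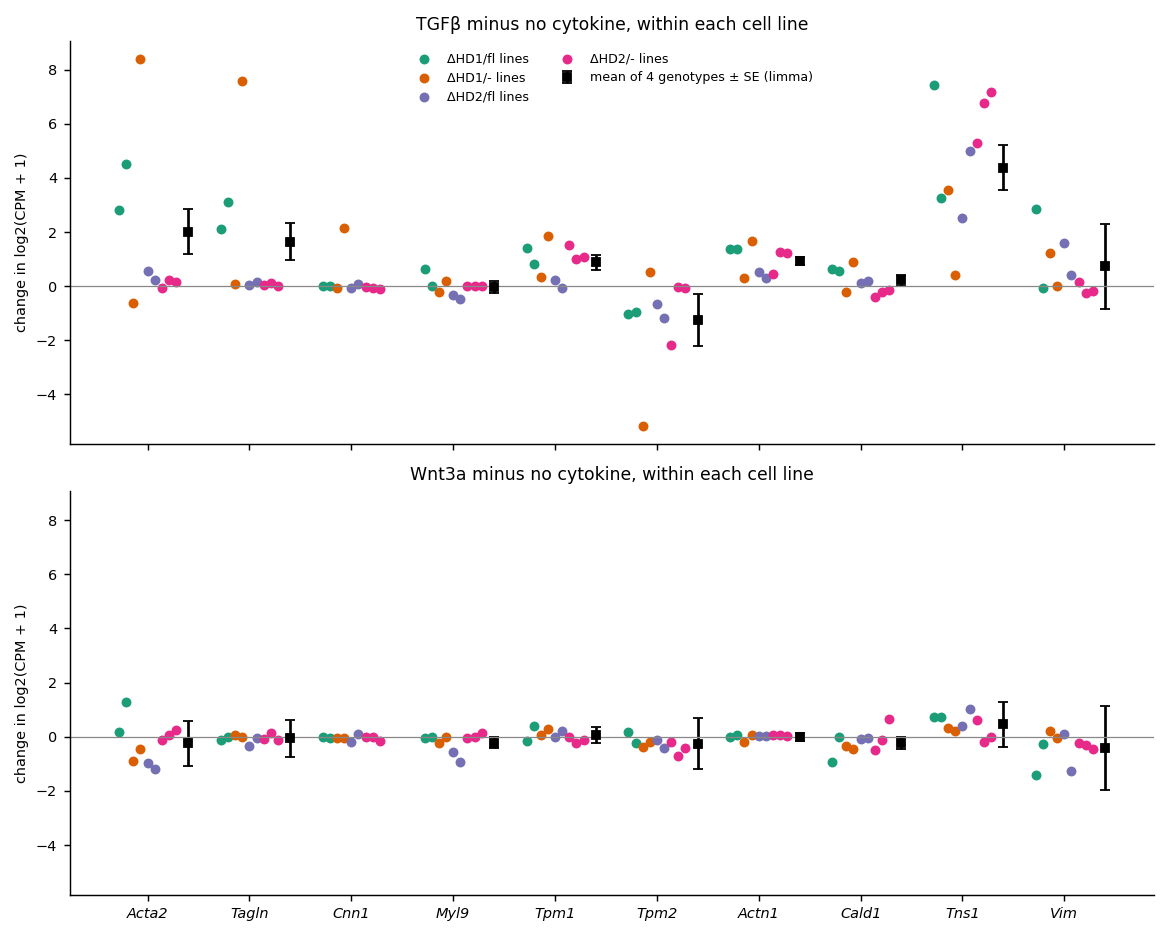
Change in log2(CPM + 1) from no cytokine to TGFβ (top) and to Wnt3a (bottom) for each gene, with 1 point per cell line coloured by genotype and, for the 9 tested genes, the limma mean over 4 genotypes with its SE (black squares). Under TGFβ all 9 lines lie above 0 for Tns1 and Actn1, while 1 ΔHD1/- line carries the highest Acta2 and Tagln points (8.39 and 7.58).

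Acta2 was higher under TGFβ in 3 of the 4 ΔHD1 lines and by far the most in 1 of them. It went from 3.30 to 1437 CPM in ΔHD1/- line 2 (111 to 39916 reads, 436-fold), from 0.261 to 27.7 CPM in ΔHD1/fl line 2 (106-fold) and from 0 to 6.10 CPM in ΔHD1/fl line 1 (145 reads after 0, at least 44.4-fold higher). In ΔHD1/- line 1 it was lower, at 0.675 CPM after 1.58 CPM. The ΔHD2/fl lines went from 9.65 to 14.7 CPM and from 7.66 to 9.09 CPM, and the ΔHD2/- lines stayed at or under 5 reads (0.0378, 0.185 and 0.125 CPM). The mean log2 change was 2.01 ± 0.84 (adjusted p = 0.108, limma) and was called with the cell line block (adjusted p = 0.0321). Without ΔHD1/- line 2 it was 0.89 (adjusted p = 0.0565). The value was 3.14 when ΔHD1/- line 1 was left out instead, and was then called (adjusted p = 2.73e-05).

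Tagln gave the same picture. It went from 0.950 to 371 CPM in ΔHD1/- line 2 (391-fold), from 0.183 to 4.12 CPM and from 0.0746 to 8.20 CPM in ΔHD1/fl lines 1 and 2, and was 0.1985 CPM after 0.128 CPM in ΔHD1/- line 1. In ΔHD2/fl it was 2.00 and 1.74 CPM after 1.94 and 1.44 CPM, and in ΔHD2/- it did not exceed 3 reads. The mean log2 change was 1.65 ± 0.69 (adjusted p = 0.112, limma), called with the cell line block (adjusted p = 0.0379), and 0.71 (adjusted p = 0.0035) without ΔHD1/- line 2. Without ΔHD1/- line 1 it was 2.58 and called (adjusted p = 2.06e-07). Without both lines that had Cdh1 near the floor, the mean changes of Acta2 and Tagln were 0.68 and 0.59 (adjusted p = 0.0114 and 0.00314), under the fold limit. Within genotypes neither gene was called by limma without a block or by edgeR without a block when all lines were kept. With the cell line block Tagln was called in ΔHD1/- (3.83, adjusted p = 0.0481, limma), and edgeR with TMM and the block called Acta2 (7.23, adjusted p = 0.0473) and Tagln (5.65, adjusted p = 0.0242) in ΔHD1/fl and Tagln in ΔHD1/- (7.65, adjusted p = 0.00989). In ΔHD1/fl both were called without either ΔHD1/- line (Acta2 3.67, Tagln 2.61), which left the ΔHD1/fl values themselves as they were, and without lines 2 of both ΔHD1 genotypes (2.83 and 2.11), where Tns1 was called as well (7.45). In ΔHD1/- both were called without its line 1 (8.39 and 7.58). Actn1 was called in ΔHD1/fl and in ΔHD2/- without ΔHD2/- line 1 (1.38 and 1.25).

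Cnn1 and Myl9 completed the smooth muscle group without a general response. Cnn1 reached 4.46 CPM (124 reads after 8) in ΔHD1/- line 2 under TGFβ and stayed at or under 0.476 CPM in the other 26 libraries, so it did not enter the test. Myl9 was 0.715 CPM in ΔHD1/fl line 1, was 0.416 and 2.70 CPM in ΔHD2/fl after 0.776 and 4.18 CPM, and did not exceed 0.144 CPM in the other lines. Its mean change was -0.03 ± 0.22 (adjusted p = 0.953, limma), a difference whose sign changed with the scaling and the pseudocount. In ΔHD1/- line 2 the smooth muscle γ-actin Actg2 also went from 2.94 to 852 CPM, and was at most 7.19 CPM elsewhere under TGFβ. Fibroblast markers summed to 5993 CPM in this line without cytokine and to 4917 CPM with TGFβ. Among them Col1a1 went from 2603 to 3611 CPM, while Col1a2 (1724 to 717.6 CPM), Col3a1 (1036 to 564.5 CPM) and Pdgfra (629 to 21.9 CPM) were lower. The 10 smooth muscle or pericyte markers summed to 766 and 490 CPM, of which Smtn made up 292 and 323 CPM and Pdgfrb 473 and 163 CPM. Des went from 0.237 to 1.94 CPM and Lmod1 from 0.861 to 1.87 CPM, while Myh11 was at 0 and 0.432 CPM, and Rgs5 and Kcnj8 had 0 reads in both libraries. The part of such cells in the Acta2 and Tagln levels was not tested.

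Cald1, the actin- and myosin-binding caldesmon, was higher under TGFβ in 5 of 9 lines. It reached 1062 and 1036 CPM in ΔHD1/fl and 1724 CPM in ΔHD1/- line 2, 506 and 558 CPM in ΔHD2/fl, and was lower in ΔHD1/- line 1 (467 CPM) and the ΔHD2/- lines (363, 467 and 352 CPM). The mean change of 0.21 ± 0.22 was not called (adjusted p = 0.537, limma).

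Vim was higher under TGFβ in 6 of 9 lines. Under TGFβ it was 1424 CPM in ΔHD1/fl line 1 (7.18-fold), 369 CPM in ΔHD1/- line 1 (2.36-fold), 1191 and 247 CPM in ΔHD2/fl (3.01-fold and 1.32-fold) and 853 CPM in ΔHD2/- line 1 (1.12-fold). In lines 2 of ΔHD1/fl and ΔHD1/- it was 3986 and 3742 CPM (0.952-fold and 1.02-fold), and in ΔHD2/- lines 2 and 3 it was 1.92 and 2.17 CPM (52 reads each). The lines near the lower end thus had no higher Vim after 4 days of TGFβ, although Tns1 went from 3 reads to 3313 and 3865 in the same libraries. The mean change of 0.73 ± 1.56 was not called (adjusted p = 0.793, limma), nor with the cell line block (adjusted p = 0.0750). Across the alternative settings the mean change of Vim ran from 0.37 to 1.24.

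The response to TGFβ did not differ by test between fl and recombined lines. The difference in response (ΔHD1/- minus ΔHD1/fl) of Tns1 was -3.37 ± 2.46 and that of Acta2 0.21 ± 2.47. Across the alternative settings the Acta2 difference ran from -4.29 to 4.72 and the Tns1 difference from -5.45 to -1.28. For ΔHD2/- minus ΔHD2/fl, Tns1 differed by 2.65 ± 2.25, Tpm1 by 1.10 ± 0.78 and Actn1 by 0.56 ± 0.40. No member was called by limma (0 of 9 in both, where 0.00754% and 0.0301% of genes were called) and 0 had an unadjusted p under 0.05, against 130 and 179 of all tested genes. edgeR called 0 members and 0 genes in all. With the cell line block 0 members were called (0.0226% and 0.098% of genes called), and 1 member in each comparison had an unadjusted p under 0.05, Tns1 in ΔHD1 (-3.37 ± 1.44, adjusted p = 0.594, limma) and Tpm1 in ΔHD2 (1.10 ± 0.41, adjusted p = 0.527). The standard errors leave room for differences larger than those given, and for Acta2 (0.21 ± 2.47) for large ones in either direction. Without ΔHD1/- line 1, Tagln was called in the first of these comparisons (4.97), and without both lines that had Cdh1 near the floor, Acta2 was (-3.45).

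No member was called under Wnt3a. The Wnt3a libraries had 3 days and those without cytokine 4 days, so treatment and culture time cannot be told apart in these changes. The mean log2 changes of the 9 tested members ran from -0.42 ± 1.56 (Vim) to 0.46 ± 0.83 (Tns1), and 0 were called by limma, where 0.0226% of genes (3 of 13270) were called. None had an unadjusted p under 0.05, against 614 of all tested genes, and edgeR called 0 members and 3 genes in all. With the cell line block 0 members were called in the mean response (0.241% of genes called) and in each genotype (0.00754% of genes in ΔHD1/fl, ΔHD1/- and ΔHD2/-, 0.324% in ΔHD2/fl), and 1 member, Myl9, had an unadjusted p under 0.05. Its change in this fit was -0.75 ± 0.18 in ΔHD2/fl (adjusted p = 0.156, limma), where its reads went from 18 to 5 and from 113 to 43, and -0.21 ± 0.09 in the mean response (adjusted p = 0.248). By genotype without the block 0 members were called either (0.0151%, 0.00754%, 0.113% and 0.00754% of genes called in ΔHD1/fl, ΔHD1/-, ΔHD2/fl and ΔHD2/-), 0 had an unadjusted p under 0.05, against 212, 27, 174 and 124 of all tested genes, and edgeR called 0 members, with 1, 0, 0 and 1 genes called in all. Actn1 was the steadiest, with changes of -0.19 to 0.08 over the 9 lines and a mean of 0.01 ± 0.15. Tpm2 and Cald1 were lower with Wnt3a in 8 of 9 lines, with means of -0.26 ± 0.95 and -0.23 ± 0.22. Vim went from 198 to 74.0 CPM in ΔHD1/fl line 1 and from 187 to 76.7 CPM in ΔHD2/fl line 2 and was lower in 7 of 9 lines. Acta2 went from 9.65 and 7.66 CPM to 4.43 and 2.82 CPM in the ΔHD2/fl lines.

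The split of the variation over 9 lines and 3 treatments separated the genes. For Vim 96.2% of the sum of squares of log2(CPM + 1) lay between lines and 1.4% between treatments, and for Myl9 90.3% and 1.9%. Tpm2 (86.7%) and Tpm1 (69.5%) were also mostly set by line. For Tns1 and Actn1 the treatments held more than the lines, at 47.7% against 39.6% and 44.7% against 43.3%. Acta2 and Tagln left 34.3% and 45.0% to neither. The medians over all tested genes were 66.1% between lines and 10.7% between treatments.

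**Figure D4:**
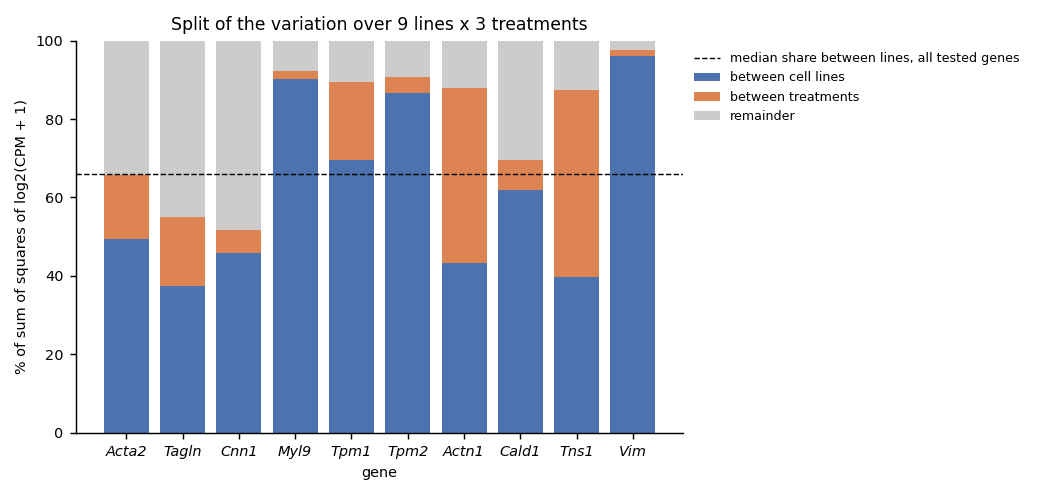
Percent of the sum of squares of log2(CPM + 1) over 9 lines and 3 treatments that lies between lines (blue), between treatments (orange) and in the remainder (grey) for each gene, with the median share between lines of all tested genes as a dashed line (66.1%). Vim is almost entirely set by line (96.2%), whereas treatment holds the largest share in Tns1 (47.7%) and Actn1 (44.7%).

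Likeness between genes was described by Pearson's correlation of log2(CPM + 1) over the 27 libraries, which share lines and depth and are not independent. Acta2 was most like Tagln (0.957), followed by Tnfrsf11b (0.924), Cmah (0.889) and Ldb3 (0.881). Without the TGFβ library of ΔHD1/- line 2 the correlation of Acta2 and Tagln was 0.92, whereas that of Tagln and Cnn1 went from 0.90 to 0.46. Tagln was most like Ldb3 (0.961), Acta2, Actg2 (0.952) and Htr2b (0.906). Vim was most like Eva1b (0.954), Serpinh1 (0.951), Gulp1 (0.948) and Trim44 (0.947). Tpm1 and Actn1 correlated at 0.80 and Tpm1 and Tpm2 at 0.22.

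The other genes of the actomyosin system gave the surroundings of these changes under TGFβ. Counts in these lists stand against 5.42% of all tested genes called (1.86% higher), or 8.92% with the cell line block. Of 19 actin crosslinkers and focal adhesion genes, 2 were called higher, the LIM proteins Pdlim7 (1.40 ± 0.12) and zyxin (Zyx, 1.19 ± 0.24), and 1 lower, Tns2 (-1.82 ± 0.31). Tns2, a paralogue of Tns1, was lower in all 9 lines, for example from 145 to 47.2 CPM in ΔHD1/fl line 1. Tns1 and Tns2 thus moved in opposite directions in every line. With the cell line block Fblim1 was also called higher (1.36) and Tns4 lower (-1.74), both named after their values were seen. The median log2 change of this list was 0.30, against 0.88 for the 9 members and -0.16 for all tested genes.

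Among 11 other actins and smooth muscle proteins and 11 genes of non-muscle myosin and its regulators, 0 were called (limma, with and without the cell line block, and edgeR), with median changes of 0.50 and 0.06. Of 10 SRF cofactors and regulators, the TEAD factor Tead4 was called lower (-1.59 ± 0.25) and was lower in all 9 lines, for example from 126 to 23.4 CPM in ΔHD1/fl line 1. Of 6 other intermediate filament genes and linkers, the synemin gene Synm was called lower (-1.07 ± 0.36, adjusted p = 0.0478, limma), a call that was lost with median-of-ratios scaling (-0.98, adjusted p = 0.0765) and with edgeR (adjusted p = 0.0711). Synm was lower in 7 lines and higher in ΔHD2/- lines 2 and 3 (0.811 to 3.66 CPM and 0.461 to 4.34 CPM). With the block Nes, which encodes nestin, was called higher (2.38), named after its value was seen. Of 8 basal or myoepithelial markers, the oxytocin receptor Oxtr (-1.88 ± 0.46) and Trp63 (-2.73 ± 0.91) were called lower, Trp63 not with median-of-ratios scaling or edgeR. Krt14 was lower in all 9 lines (mean change -2.09, called with the block and by edgeR), and Krt5 was also called lower with the block (-2.12). Of the epithelial (9), fibroblast (6), smooth muscle or pericyte (5) and leukocyte (1) markers tested, 0 were called by limma without a block. With the cell line block (8.92% of genes called), the epithelial Cldn4 (1.81) and Krt7 (1.28) and the fibroblast collagen Col1a1 (1.21) were called higher, Cdh1 (-1.53) and the pericyte marker Notch3 (-1.21) lower, and edgeR called the leukocyte marker Cd68 lower (-1.03). The part of these markers in the members' changes was not tested. Of 2 endothelial markers Cdh5 passed the limits as higher (1.20 ± 0.29), at no more than 6.32 CPM. It reached 1 CPM only under TGFβ and entered the test through those libraries, so nothing is read from that call. Wnt3a called 0 genes in any of these lists.

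**Figure D5:**
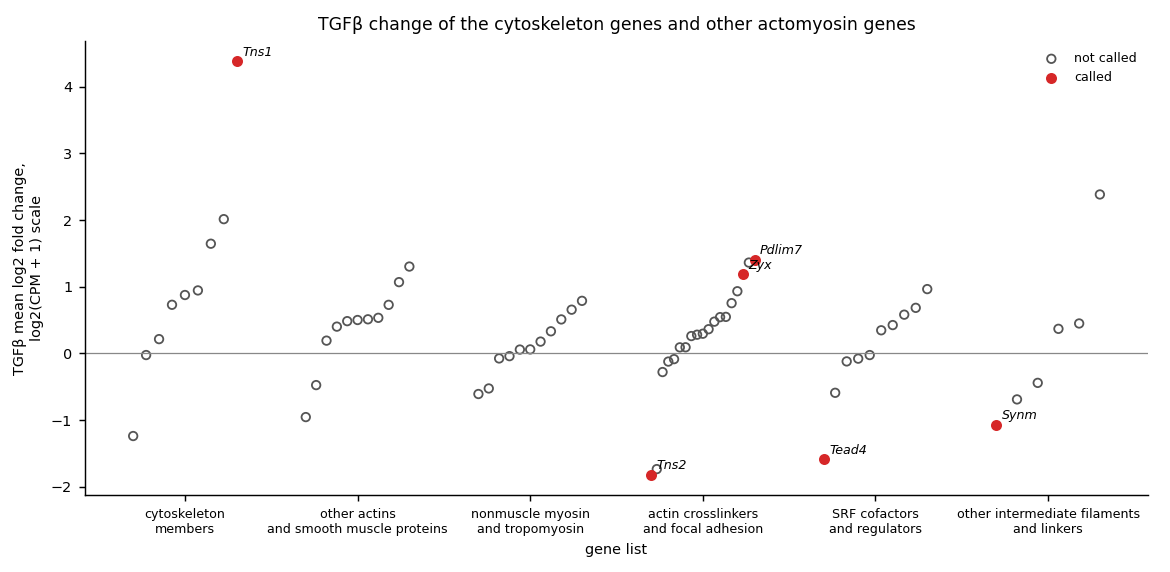
Mean TGFβ log2 fold change on the log2(CPM + 1) scale of the 9 tested cytoskeleton genes (left) and of 5 lists of other actomyosin genes, with 1 circle per gene and called genes filled and named. Tns1 stands highest at 4.38, while Pdlim7 and Zyx (1.40 and 1.19) are the only called rises in the other lists and Tns2 the deepest called fall (-1.82).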

How the data were processed

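RNA of 27 libraries (9 cell lines, 3 treatments, 12 groups) was analysed. The authors made stranded mRNA libraries, aligned them with STAR to mm10 keeping unique hits, counted reads starting in RefSeq exons with QuasR and used edgeR. The deposited table, the only file, holds their CPM values, which sum to 1000000 per library without further scaling. Of 24454 Entrez identifiers 24374 matched a symbol. All values (100%) were whole multiples of 1 read within 0.1 read, so reads were recovered.

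The 13270 genes reaching 1 CPM in 2 or more libraries entered limma 3.58.1 (R 4.3.3, trend and robust settings) on log2(CPM + 1), which understates changes of low genes. All libraries entered 1 fit of 12 group means without a block. A call needed a Benjamini-Hochberg p no higher than 0.05 and a log2 change of 1 or more in either direction. The 16 comparisons were the mean and per-genotype responses to TGFβ and Wnt3a, fl against recombined lines, and differences in TGFβ response. The test was tried on simulated counts.

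Replicates are cell lines. The treated and untreated libraries of a line shared their deviations from the group means (correlation 0.509 to 0.94 over 27 pairs), so a second fit had cell line as the block. Other settings tried were median-of-ratios scaling, no filter, a pseudocount of 0.1, blocks, only the groups compared, edgeR 4.0.16 on recovered reads, no fold limit, ΔHD2/- lines 2 and 3 averaged, and leaving out each line. Added after seeing the data were edgeR with TMM and a block and leaving out ΔHD2/- lines 2 and 3, or lines 2 of ΔHD1/fl and ΔHD1/-.

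The 10 members and all gene lists were chosen with earlier results of these data known. Named beside them are up to 3 called genes per list and comparison with the largest change, the 4 genes most correlated with Acta2, Tagln and Vim, markers, and the targeted genes. Gene positions come from GRCm38 (the assembly also called mm10), exon lengths from its GENCODE annotation and promoters from RefSeq. Whether counting used the strand is not given in the sources used here. Intervals and floors from reads cover counting error only.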

Additional observations from a re-analysis of the deposited data

Results flagged for a closer look

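In 5 cases every line of 1 genotype moved one way and every line of another the opposite way, counting only genotypes in which each line had more than 3 reads in 1 of the libraries. In 4 of these the difference was not tested. With Wnt3a, Acta2 was higher in both ΔHD1/fl lines (mean change 0.73 in log2(CPM + 1)) and lower in both ΔHD2/fl lines (-1.08), a difference of 1.80. It was also lower in both ΔHD1/- lines (-0.68), a difference of 1.41. The ΔHD1/fl values rest on 4 reads after 0 in line 1 and 58 reads after 7 in line 2. With Wnt3a, Tpm1 was higher in both ΔHD1/- lines (0.19) and lower in the 3 ΔHD2/- lines (-0.13), a difference of 0.32. With TGFβ, Cald1 was higher in both ΔHD1/fl lines (0.59) and lower in the 3 ΔHD2/- lines (-0.25), a difference of 0.84. In the fifth case, Cald1 with TGFβ was higher in both ΔHD2/fl lines and lower in the 3 ΔHD2/- lines, and that difference was tested (ΔHD2/- minus ΔHD2/fl -0.41 ± 0.58, adjusted p = 1, limma) and was not called. The number of genotype pairs compared gives such patterns room to arise from 2 or 3 lines per genotype. Groups held too few samples to look for single outlying values within them.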

How the results depend on the processing

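The counts below are of called members. The mean TGFβ response held 1 (Tns1) and Tns1 was called under all 19 alternatives. The count was 3 with the cell line replicate block and with edgeR (Acta2, Tagln, Tns1) and 3 with median-of-ratios scaling and without a fold limit (Tpm1, Actn1, Tns1). It was 5 with edgeR, TMM and the block, and 1 to 5 when 1 line was left out. In ΔHD1/fl the count of 0 was 3 with the block, 5 with edgeR, TMM and the block, 0 to 2 with 1 line left out and 3 without lines 2 of ΔHD1, where all tested genes gave 28, 719, 775, 11 to 169 and 324 calls. In ΔHD1/- it was 2 with the block, 3 with edgeR, TMM and the block, and 0 to 2 with 1 line left out (190, 1238, 1249 and 41 to 382 genes). In ΔHD2/fl it was 1 (Tns1) with the block and 0 with edgeR, TMM and the block (38, 695 and 596 genes). In ΔHD2/- the count of 1 was 0 without the filter, with edgeR, with ΔHD2/- lines 2 and 3 averaged or left out, 2 with the block, 3 with edgeR, TMM and the block, and 0 to 1 with 1 line left out (107 genes, 800 with the block, 1120 with edgeR, TMM and the block, and 1 to 247 with 1 line left out). The filter changed the number of genes adjusted for, and averaging or leaving out lines changed the number of samples.

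Between genotypes, the counts of 0 were 1 (Myl9) in ΔHD2 without cytokine with the replicate number as a block, a gene that passed the filter through ΔHD2/fl line 2 alone, so nothing is read from that call. The number is not known to pair fl and recombined lines, whose same-numbered deviations correlated at 0.117 to 0.472 in ΔHD1 and 0.087 to 0.19 in ΔHD2. With 1 line left out they were 0 to 2 in ΔHD2 in both states and in ΔHD1 under TGFβ, and 0 to 1 in the difference of TGFβ responses of ΔHD1. Without lines 2 of ΔHD1 these were 2, 2, 2 and 1. The same setting leaves fewer samples to estimate the spread. In it Tagln passed the filter through the ΔHD2/fl lines, so nothing is read from its calls between the ΔHD2 genotypes. The cell line block changed no other call, and other causes were not tested.

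The sign changed for 4 mean changes of members, none of them called. Myl9 under TGFβ (-0.03) was 0.07 with a pseudocount of 0.1, 0.01 with median-of-ratios scaling, 0.49 with edgeR, 0.67 with edgeR, TMM and the block, 0.00 without lines 2 of ΔHD1 and -0.11 to 0.06 with 1 line left out. Under Wnt3a, Acta2 (-0.24) was 0.49 with edgeR and 0.26 with edgeR, TMM and the block. Without lines 2 of ΔHD1, Tpm1 (0.07) was -0.02 and Actn1 (0.01) was -0.04, and Actn1 ran from -0.03 to 0.04 with 1 line left out. Over all tested genes the mean TGFβ response called 719 genes, 1184 with the block, 1834 with edgeR, TMM and the block, 2234 without a fold limit, and 465 and 455 without ΔHD2/fl line 1 or 2.

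With 2 or 3 lines per genotype, a difference between lines of 1 genotype widens the standard errors of that gene in the fit without a block. For Vim in the mean TGFβ response the SE was 1.56 without the cell line block and 0.32 with it. Acta2, Tagln, Cnn1 and Myl9 were at or near the CPM of 3 reads in many libraries, where changes are not detectable at this depth.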
